A study of Mus musculus with 12 samples.

Results

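The 78 nuclear genes named as mitochondrial ribosomal proteins were followed through 12 RNA-seq libraries of mouse regulatory T cells (Treg cells). They were chosen by symbol alone, as rows named Mrpl or Mrps with a number and at most 1 letter from a to c, and make up 78 of the 24502 genes listed. Of these, 51 encode proteins of the large subunit and 26 proteins of the small subunit. Mrps30 and Mrps18a count with the large subunit, where their proteins sit. Mrps36 belongs to neither, since its protein is known in structures as a subunit of the alpha-ketoglutarate dehydrogenase complex. Of the 77 ribosomal members, 46 have a bacterial homolog and 31 are specific to mitochondria.

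The study asked what the lipid peroxide-reducing enzyme Gpx4 does in Treg cells. The 12 libraries form 4 groups of 3 and came from sorted Treg cells of mice aged 11 weeks: WT unstimulated, WT stimulated, and Gpx4-deficient (Foxp3CreGpx4fl/fl) in the same 2 states. The deletion is driven by Cre under the control of Foxp3, so it is limited to cells that express Foxp3, and the labels do not say whether the WT mice carried the same Cre. Stimulated cells had been kept for 4 h on plates coated with antibodies against CD3 and CD28 (5 μg/ml), which engage the T cell receptor and its costimulatory receptor. The labels do not tie the 3 libraries of a group to different animals; the spread behind each p-value is that between libraries and may be technical.

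The mitochondrial ribosome translates the few mRNAs encoded by mitochondrial DNA, all of them for subunits of the respiratory chain and ATP synthase. Its RNA is made in the organelle, but every one of its proteins is encoded in the nucleus, translated in the cytosol and imported. Its small subunit reads the mRNA and its large subunit joins amino acids. T cells leaving rest increase mitochondrial mass and translation, and the ETS factor GABP, NRF1 and the coactivator Pprc1 are known regulators of nuclear genes for mitochondrial proteins.

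The libraries held 24629230 to 31879267 estimated counts. Levels are CPM (reads scaled to a common library total, with TMM factors). Gpx4 was at 141.88 to 172.084 CPM in WT unstimulated and 69.227 to 107.476 CPM in WT stimulated cells, against 3.339 to 12.339 CPM in the 6 Gpx4-deficient libraries. All 6 Treg and T cell markers (Foxp3, Il2ra, Ctla4, Ikzf2, Cd3e and Cd4) were present in every group. The library identifiers in the sample titles run in 1 block per genotype and, within it, in 1 run per state. Anything that differs between these blocks or runs cannot be told apart from genotype or stimulation. In bulk samples such as these, fewer cells of a type and less RNA per cell cannot be told apart. After the data were seen, Gpx4-deficient unstimulated replicate 1 and stimulated replicate 3 were put in doubt, and counts are also given without these 2. Each had the fewest genes with a count in its group (15164 and 14013) and the highest share of mitochondrially encoded mRNA (1.76% and 3.25% of counts).

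All 78 members were expressed and passed the filter on low counts. The lowest count of any member was 7, for Mrps27 in Gpx4-deficient stimulated replicate 3. Per kilobase of transcript, the mean over all 12 libraries ranged from 3.47 CPM for Mrpl47 to 123 CPM for Mrpl33, a 35.5-fold span around a median of 32.6 CPM per kilobase. Mrpl33, Mrps6 (108), Mrpl42 (98.2), Mrpl30 (86.7) and Mrpl4 (77.7) stood highest. Mrpl19 (8.60), Mrps25 (8.05), Mrps35 (7.32), Mrpl1 (6.94) and Mrpl47 stood lowest. Counting by expectation maximisation can move reads between overlapping genes or near copies: 31 members share exon bases with another listed gene, 7 of them on the same strand, and 19 have a near-identical copy elsewhere in the annotation. The kit keeps strand, but whether strand was used in counting is not given in the sources used here.

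**Figure D1:**
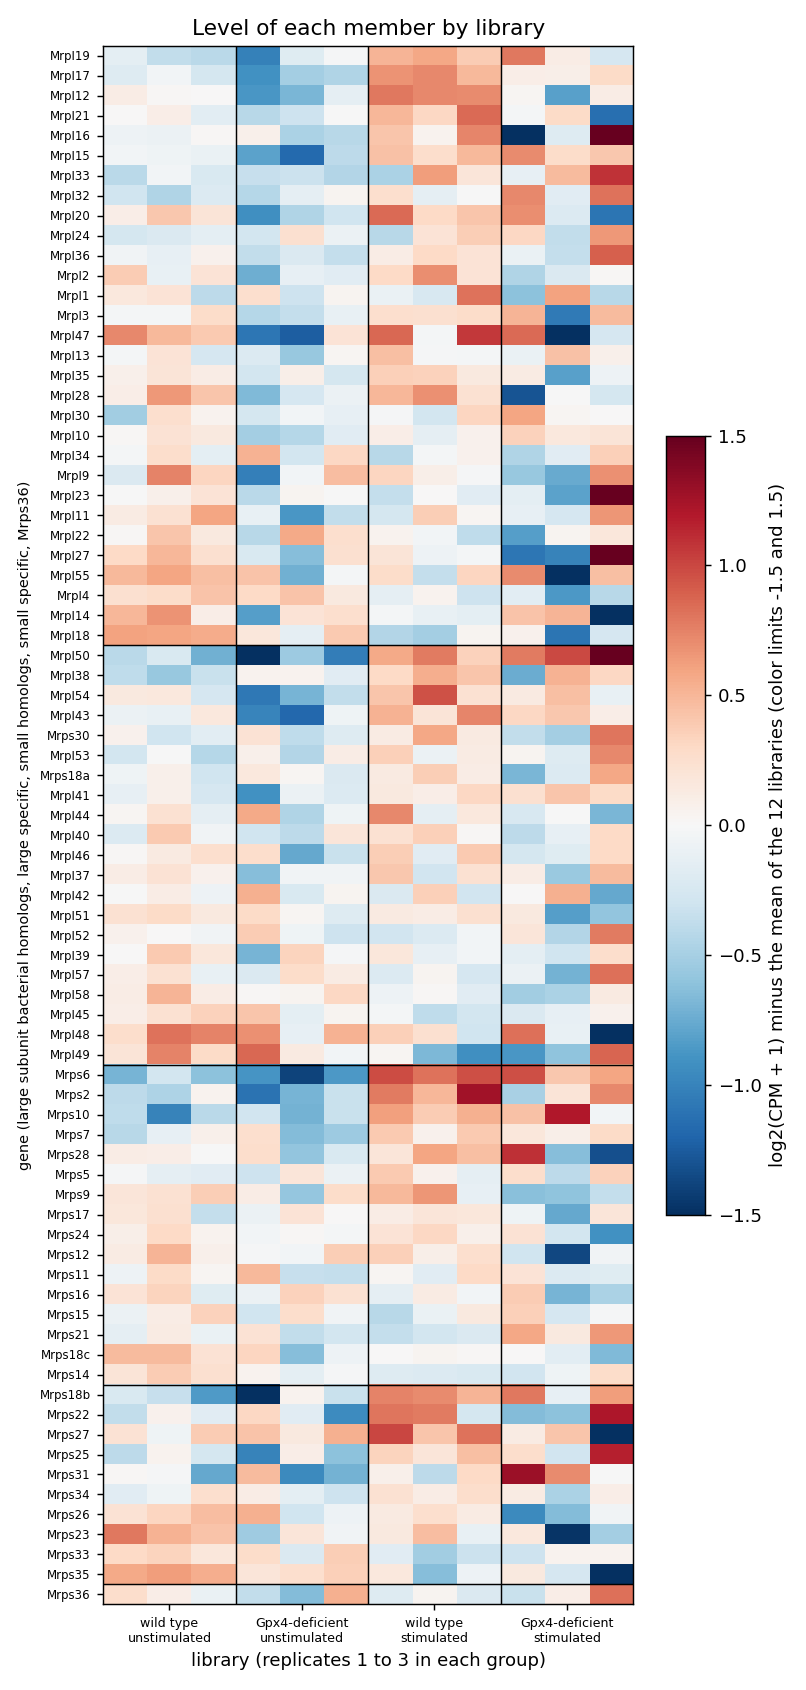
Level of each of the 78 members (rows) in each of the 12 libraries (columns), as log2(CPM + 1) minus the mean of the member over the libraries; horizontal lines separate subunit and origin classes, and color stops at -1.5 and 1.5. The WT columns are even within a group, and the 3 stimulated Gpx4-deficient columns differ most from one another.

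Replicates agreed far better in WT than in Gpx4-deficient cells. The median coefficient of variation of a member was 12.8% in WT unstimulated, 13.7% in WT stimulated, 22.4% in Gpx4-deficient unstimulated and 37.4% in Gpx4-deficient stimulated libraries. The 6192 genes in the same range of mean level had medians of 17.7%, 21.6%, 25.7% and 44.0% in the same order. Single members went with this: in stimulated Gpx4-deficient replicates 1 to 3, Mrpl27 was at 10.7, 11.5 and 74.9 CPM, Mrpl16 at 7.0, 21.9 and 80.7 CPM, and Mrps27 at 27.9, 34.4 and 0.264 CPM. For each of these 3 genes, replicate 3 stood far from the other 2. For other members replicate 2 stood apart, such as Mrpl3 (79.1, 26.0 and 77.0 CPM) and Mrpl55 (35.4, 2.7 and 29.4 CPM). All of these genes were picked after their values were seen, and in the heatmap the 3 columns differ from one another.

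Stimulation of WT cells raised 4 members and lowered none in edgeR's quasi-likelihood test, with Benjamini-Hochberg adjusted p under 0.05 over all 14827 tested genes. All 4, Mrps6, Mrpl17, Mrps2 and Mrps10, have bacterial homologs, and 3 of them belong to the small subunit. That is 4 of 78 beside 6.12% of tested genes that rose and 5.41% that fell, so the members were called no more often than genes in general. At unadjusted p under 0.05, 10 members (12.8%) were higher and 4 (5.13%) lower, beside 11.8% and 11.5% of tested genes. The median log2 fold change was 0.13 over the members and -0.03 over all tested genes.

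Mrps6, which encodes a small subunit protein, was at 47.6, 63.8 and 50.4 CPM in WT unstimulated libraries and at 154, 137 and 153 CPM in stimulated ones. Its log2 fold change was 1.46 (SE 0.22, edgeR adjusted p = 0.000756), the largest among the members in WT cells. In Gpx4-deficient cells it went from 41.5, 28.9 and 42.3 CPM to 153, 103 and 118 CPM, a log2 fold change of 1.73 (SE 0.22, edgeR adjusted p = 0.000244). The unstimulated and stimulated libraries did not overlap in either genotype. Mrps6 (chromosome 16, 92058270-92112227, plus strand, GRCm38) shares 305 exon bases on the same strand with Gm49711. That gene was at 0 CPM in every library but Gpx4-deficient stimulated replicate 1 (1.58 CPM). Mrps6 also shares 159 exon bases on the same strand with Slc5a3, the sodium/myo-inositol cotransporter gene. Slc5a3 rose too, by 3.36 in WT (edgeR adjusted p = 7.70e-05) and by 2.44 in Gpx4-deficient cells (edgeR adjusted p = 0.000649), both on the log2 scale. The part of shared reads in the rise of Mrps6 was not tested.

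Mrpl17, a large subunit gene (chromosome 7, 105803206-105811099, minus strand), was at 46.2, 51.7 and 44.1 CPM in WT unstimulated libraries and at 85.5, 88.5 and 75 CPM after stimulation. The 2 WT groups were well apart, with a log2 fold change of 0.81 (SE 0.21, edgeR adjusted p = 0.0239). In Gpx4-deficient cells it went from 27.9, 37.1 and 38.6 CPM to 57.2, 56.4 and 65.4 CPM, and the log2 fold change of 0.79 (edgeR adjusted p = 0.0233) was of like size. The Gpx4-deficient call held in 5 of 6 fits with 1 library left out. It was lost without a filter, with the replicate block, with only the 6 libraries compared and without the 2 doubted libraries. The WT call was lost without a filter and with the replicate block. At either state all Gpx4-deficient libraries lay below all WT ones.

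Mrps10, the homolog of a bacterial protein of the small subunit head (chromosome 17, 47368887-47381417, plus strand), rose in both genotypes. Its WT levels were 32.6, 20.7 and 32.1 CPM without and 65.7, 55.8 and 62.4 CPM with stimulation, a log2 fold change of 1.11 (SE 0.33, edgeR adjusted p = 0.0492). Gpx4-deficient levels were 34.7, 25.7 and 33.6 CPM without and 58.2, 99.2 and 41.4 CPM with stimulation, a log2 fold change of 1.08 (edgeR adjusted p = 0.0444). The stimulated Gpx4-deficient libraries spread more widely than the stimulated WT ones. The call in Gpx4-deficient cells held in 2 of the 6 fits that each left out 1 of their libraries, with edgeR adjusted p up to 0.147, and was lost with limma-voom, without a filter, with the replicate block and with only the 6 libraries compared. In WT cells the call was lost with DESeq2 scaling in edgeR, with limma-voom, without a filter and with the replicate block. A processed pseudogene matches 558 bases of Mrps10 at 97.8% identity.

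Mrps2, another small subunit gene (chromosome 2, 28468066-28471178, plus strand), went from 44.4, 42.0 and 60.5 CPM to 101, 83.2 and 141 CPM in WT cells, a log2 fold change of 1.15 (SE 0.34, edgeR adjusted p = 0.0490). In Gpx4-deficient cells its levels were 26.5, 35.6 and 46.2 CPM without and 41.4, 67.1 and 97.0 CPM with stimulation, and these groups overlapped. The WT call of Mrps2 was lost with DESeq2 scaling in edgeR and without a filter. Leaving out any 1 of the 6 WT libraries left Mrps6 as the only called member in WT cells. Over all tested genes, 1150 to 1248 were then called. Mrpl17, Mrps2 and Mrps10 then had adjusted p-values of 0.0501 to 0.210 with edgeR, with log2 fold changes still between 0.74 and 1.34.

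**Figure D2:**
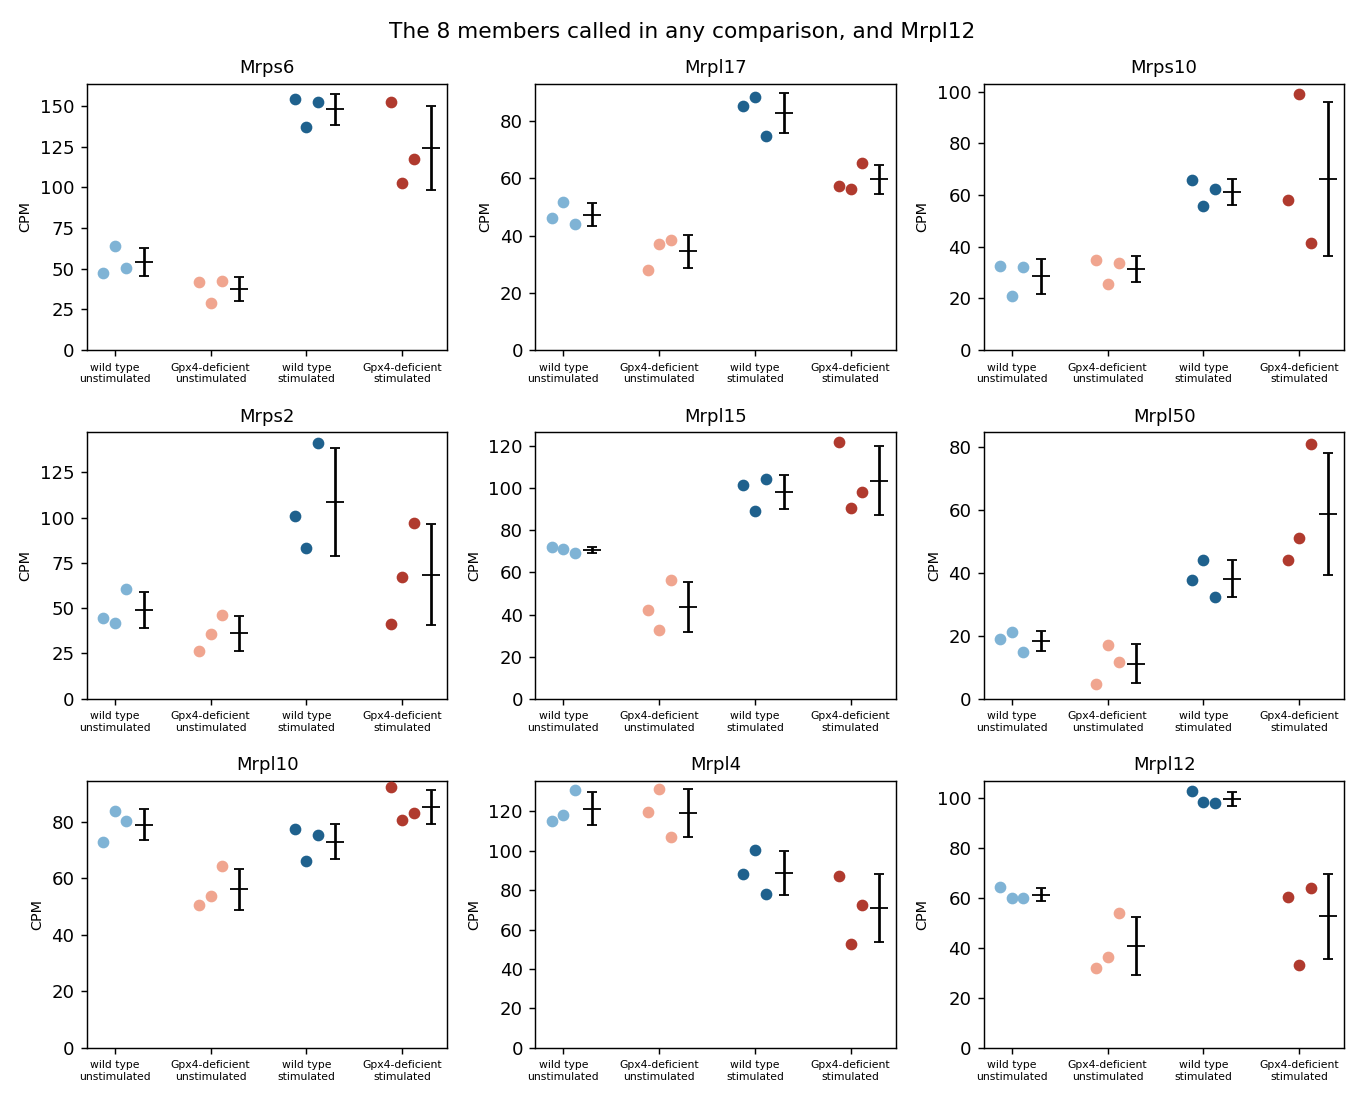
CPM of the 8 members called in any comparison and of Mrpl12 in each library; points are replicates 1 to 3, and the black mark beside them is the mean with its SD (n = 3). Stimulated libraries lie above unstimulated ones in both genotypes for Mrps6, Mrpl17, Mrps10, Mrpl15 and Mrpl50, and for Mrpl4 below.

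In Gpx4-deficient cells stimulation raised 6 members (Mrps6, Mrpl15, Mrpl50, Mrpl17, Mrpl10 and Mrps10) and lowered 1, Mrpl4. Of all tested genes 7.45% rose and 7.83% fell, so 6 of 78 is again about the general share of risers, while 1 of 78 is fewer than the general share of fallers. At unadjusted p under 0.05, 14 members (17.9%) were higher and 1 (1.28%) lower, beside 13.5% and 16.3% of tested genes. The median log2 fold change was 0.15 over the members and -0.02 over all genes. Without the 2 doubted libraries 5 members were called, all higher (6.41%, beside 7.21% of tested genes), and Mrpl4, Mrpl10 and Mrpl17 were not among them. Leaving out unstimulated replicate 1 alone gave 3 called members, and leaving out unstimulated replicate 2 gave 4. Over all tested genes, 1797 and 1672 were called in these 2 fits.

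Mrpl15, a large subunit gene (chromosome 1, 4773206-4785739, minus strand), differed most plainly in its starting level. WT unstimulated libraries were at 72.0, 71.3 and 69.1 CPM and Gpx4-deficient ones at 42.0, 32.7 and 56.2 CPM, without overlap. After stimulation WT libraries were at 102, 89.2 and 104 CPM and Gpx4-deficient ones at 122, 90.5 and 98.3 CPM, so the genotypes overlapped. The log2 fold change on stimulation was 1.25 in Gpx4-deficient cells (SE 0.22, edgeR adjusted p = 0.00222) and 0.47 in WT cells.

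Mrpl50 encodes a mitochondrion-specific protein of the large subunit (chromosome 4, 49512596-49521093, minus strand). It rose from 4.85, 16.9 and 11.8 CPM to 44.2, 51.1 and 80.7 CPM in Gpx4-deficient cells, a log2 fold change of 2.39 (SE 0.45, edgeR adjusted p = 0.00355) and the largest of any member in any comparison. In WT cells it was at 18.9, 21.3 and 14.9 CPM without and 37.8, 44.0 and 32.4 CPM with stimulation, a log2 fold change of 1.05 that missed the threshold although the groups were apart. Mrps6, Mrpl15 and Mrpl50 kept their calls in Gpx4-deficient cells under each alternative run, with adjusted p of at most 0.0490.

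Mrpl10 encodes the base of the ribosomal stalk, to which translation factors bind (chromosome 11, 97041560-97049213, plus strand). WT libraries did not move apart, at 72.9, 83.9 and 80.2 CPM without and 77.5, 65.9 and 75.4 CPM with stimulation. Gpx4-deficient libraries went from 50.5, 53.6 and 64.2 CPM to 92.2, 80.6 and 82.9 CPM, a log2 fold change of 0.60 (SE 0.18, edgeR adjusted p = 0.0376). That call held in 3 of 6 fits with 1 library left out. Mrpl10 was the only member whose genotypes were apart in both states in opposite directions, lower in Gpx4-deficient cells at rest and higher after stimulation.

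Mrpl4, whose bacterial homolog lines the exit tunnel of the large subunit (chromosome 9, 21002738-21008839, plus strand), went the other way from the 6 risers. In Gpx4-deficient cells it went from 120, 131 and 107 CPM to 87.1, 52.8 and 72.6 CPM, a log2 fold change of -0.75 (SE 0.20, edgeR adjusted p = 0.0238). In WT cells it went from 115, 118 and 131 CPM to 88.4, 100.2 and 78 CPM, a log2 fold change of -0.45 with groups apart but edgeR adjusted p = 0.193. The Gpx4-deficient call held in 3 of 6 fits with 1 library left out. It was 1 of the 5 most abundant members per kilobase.

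Counting groups that did not overlap gave a wider picture. In WT cells 22 members were higher and 13 lower in all stimulated libraries than in all unstimulated ones, which is 28.2% and 16.7% of members beside 19.8% and 22.1% of tested genes. Among the higher were Mrps18b (1.13), Mrpl50 (1.05), Mrpl38 (0.87) and Mrpl12 (0.70), given as log2 fold changes, and among the lower Mrpl49 (-0.93), Mrpl18 (-0.88), Mrps35 (-0.75) and Mrps33 (-0.62). Without WT unstimulated replicate 1, or without WT stimulated replicate 2, the lower count was 20. In Gpx4-deficient cells 11 members were higher (14.1%) and 3 lower (3.85%, Mrpl4, Mrps35 and Mrps12), beside 12.9% and 16.9% of tested genes. There the higher count was 17 without unstimulated replicate 1 and 21 without stimulated replicate 2, and the lower count was 5 to 8 without unstimulated replicate 2 or any 1 of the stimulated libraries. Groups of fewer libraries stand apart more easily for any gene. The share of all tested genes was not computed for these left-out counts.

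Across both genotypes 8 members were called and 70 were not. Mrps6, Mrpl17 and Mrps10 were called in both, which is 75% of the WT calls and 42.9% of the Gpx4-deficient calls. The estimate was positive in both genotypes for 37 members and negative in both for 18, and the signs differed for the remaining 23. The 2 stimulation comparisons share no library. No share of all tested genes was computed for these counts, so they are not read as particular to the members.

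**Figure D3:**
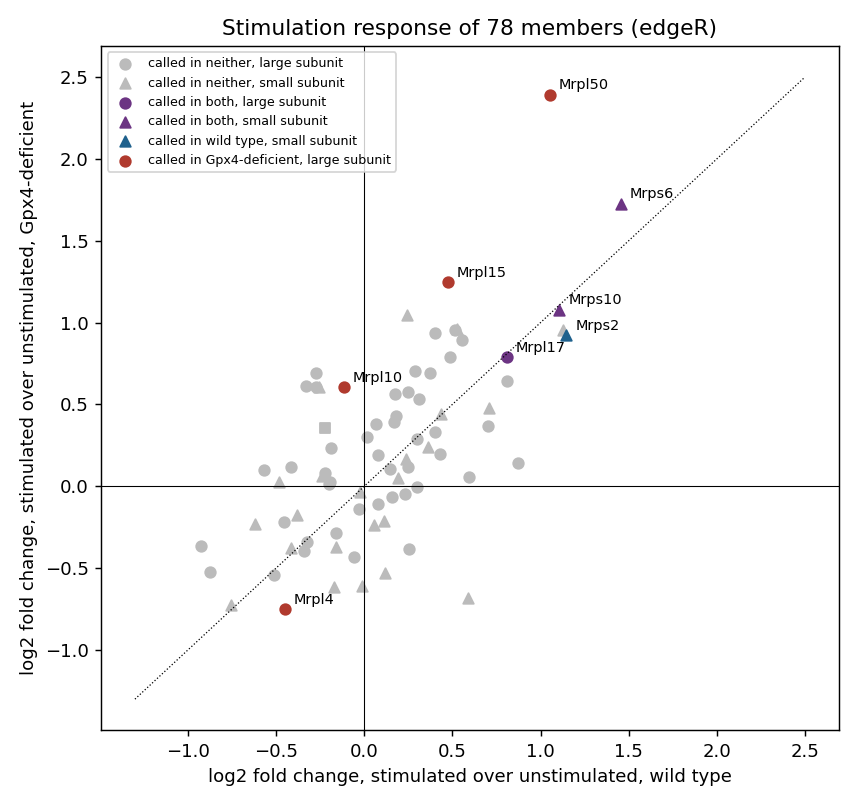
Log2 fold change of stimulated over unstimulated libraries for each member, in WT (x axis) and Gpx4-deficient cells (y axis), from edgeR; circles are large and triangles small subunit genes, the square is Mrps36, and the dotted line marks equal change. Mrps6 (1.46 and 1.73), Mrpl17 (0.81 and 0.79) and Mrps10 (1.11 and 1.08) lie near that line, and Mrpl50 (1.05 and 2.39) and Mrpl15 (0.47 and 1.25) above it.

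Sums over markers of other cells also differed between the states. In WT cells they were lower after stimulation without overlap for monocytes and macrophages (134 to 243 against 25.8 to 63.2 CPM), erythroid cells and platelets (20.7 to 32.9 against 4.93 to 8.07 CPM), B cells (40.2 to 51.9 against 13.9 to 24.0 CPM) and CD8 and NK cells (18.7 to 25.9 against 8.38 to 16.5 CPM), while those of neutrophils overlapped (47.2 to 171 and 21.4 to 76.2 CPM). In Gpx4-deficient cells the monocyte and macrophage sum was lower (115 to 154 against 65.2 to 89.9 CPM) and the erythroid and platelet sum higher (13.2 to 17.8 against 19.8 to 21.4 CPM) without overlap. There the sums for neutrophils (1.30 to 8.08 and 4.85 to 57.3 CPM), B cells (26.2 to 47.6 and 5.03 to 60.8 CPM) and CD8 and NK cells (18.4 to 28.0 and 9.84 to 24.9 CPM) overlapped. Markers at 0 in every library of a group were Retnlg, Cd8a and Ppbp in WT stimulated and Pax5, Mpo, Retnlg, Ncr1, Pf4 and Ppbp in Gpx4-deficient stimulated cells. Their part in the stimulation results was not tested.

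The difference between the 2 stimulation responses was tested directly, as the interaction of genotype and stimulation. No member passed in edgeR, beside 0.0270% of tested genes with a more positive and 0.175% with a more negative response in Gpx4-deficient cells. At unadjusted p under 0.05 there were 4 members (5.13%), all more positive, beside 3.22% of tested genes with a more positive and 5.54% with a more negative response. They were Mrpl10 (difference in log2 fold change 0.72, SE 0.25, edgeR adjusted p = 0.439), Mrpl15 (0.77), Mrps21 (0.86) and Mrpl50 (1.34). DESeq2 called 1 member, Mrpl10, as more positive (1.28%, beside 0.976% of tested genes), and limma-voom called none. So the rise called for Mrpl15, Mrpl50 and Mrpl10 in Gpx4-deficient cells alone was not shown to differ from WT by the edgeR test.

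Unstimulated Gpx4-deficient cells had lower estimates for most members, though none passed the test alone. The log2 fold change was negative for 63 of 78 members (80.8%) and for 49.3% of all tested genes, with medians of -0.21 and 0.01. No member was called by edgeR, where 0.0540% of genes were higher and 0.0135% lower. At unadjusted p under 0.05, 7 members (8.97%) were lower and none higher, beside 2.84% and 2.96% of tested genes. DESeq2 called no member in either direction, beside 1.30% of tested genes, and limma-voom none, beside 0.142%.

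By groups that did not overlap, 21 members (26.9%) were lower in every unstimulated Gpx4-deficient library than in every WT library, beside 9.89% of tested genes. Only Mrpl38 was higher throughout, at 47.5, 47.7 and 40.7 CPM against 34.8, 30.5 and 36.0 CPM in WT (1.28% of members, beside 8.42% of tested genes). The 21 comprised 17 of the 46 members with bacterial homologs (37.0%) and 4 of the 31 mitochondrion-specific ones (12.9%). By subunit they were 16 of 51 large (31.4%) and 5 of 26 small (19.2%). These differences between classes were not tested. Left-out libraries gave 21 to 32 lower members, with 32 when Gpx4-deficient replicate 1 was left out, and 1 to 5 higher ones, with 4 and 5 when Gpx4-deficient replicate 1 or 2 was left out. With fewer libraries, groups are apart more easily for any gene, and the share of all tested genes was not computed for these counts.

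Mrpl47 had the most negative estimate of the 21, at 16.6, 14.0 and 13.1 CPM in WT and 4.04, 3.54 and 11.4 CPM in Gpx4-deficient unstimulated libraries, a log2 fold change of -1.21. It is also the lowest member per kilobase, and shares 616 exon bases with Ndufb5 on the opposite strand. Mrpl28 was at 52.3, 77.0 and 65.0 CPM against 30.4, 40.5 and 45.6 CPM, a log2 fold change of -0.74. For both genes the WT and Gpx4-deficient libraries were apart, and so were those of Mrpl15 (-0.70), Mrps23 (-0.71), Mrpl54 (-0.74), Mrpl11 (-0.78) and Mrpl20 (-0.80). The smallest adjusted p among the 78 was that of Mrpl15 (edgeR adjusted p = 0.576).

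Markers of neutrophils and of erythroid cells and platelets were apart between the unstimulated genotypes. The summed level of 8 neutrophil markers was 47.2 to 171 CPM in WT and 1.30 to 8.08 CPM in Gpx4-deficient unstimulated libraries. None of the 8 was at 0 in every library of either group. Single libraries did have markers at 0, such as Elane (0.035, 0 and 0 CPM in Gpx4-deficient unstimulated libraries). Erythroid and platelet markers summed to 20.7 to 32.9 CPM and 13.2 to 17.8 CPM, with Ppbp at 0 in the Gpx4-deficient group. The sums of the other marker lists overlapped: monocytes and macrophages (134 to 243 and 115 to 154 CPM), B cells (40.2 to 51.9 and 26.2 to 47.6 CPM, Pax5 at 0 in both), and CD8 and NK cells (18.7 to 25.9 and 18.4 to 28.0 CPM, Cd8a at 0 in the Gpx4-deficient group). Their part in the lower member levels was not tested.

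**Figure D4:**
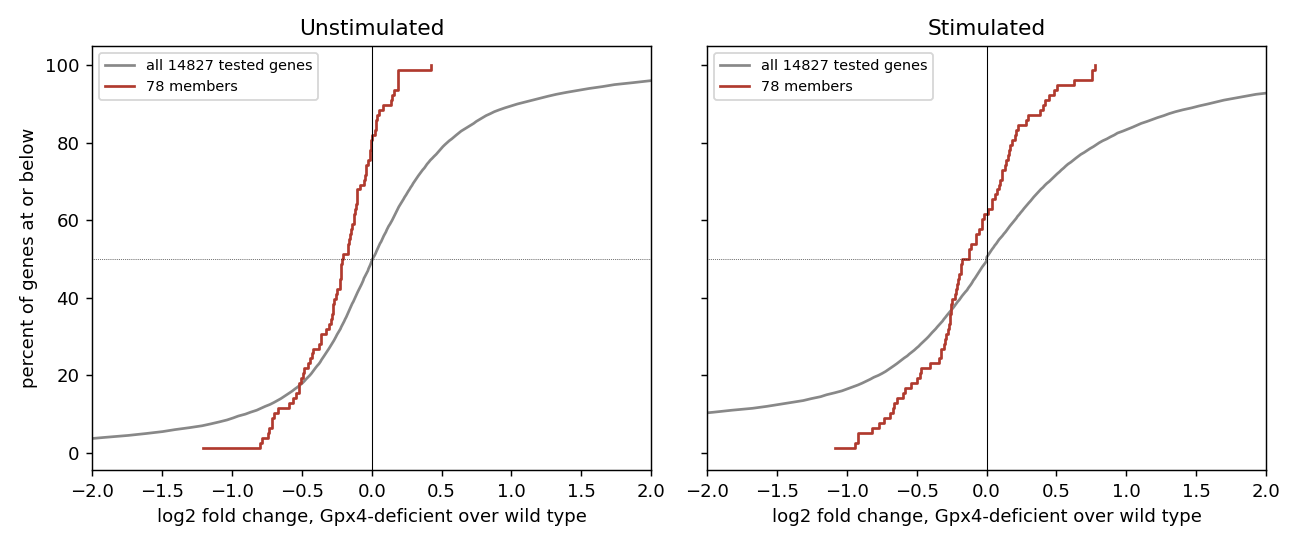
Cumulative percent of genes (y axis) at or below a log2 fold change of Gpx4-deficient over WT (x axis), for the 78 members (red) and all 14827 tested genes (gray), in unstimulated (left) and stimulated cells (right). The member curve crosses 0 at 80.8% in unstimulated and 61.5% in stimulated cells, beside 49.3% and 49.5% of all genes.

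After stimulation the members were more evenly divided between the genotypes. The estimate was lower in Gpx4-deficient cells for 48 of 78 members (61.5%), with a median log2 fold change of -0.15 over the members and 0 over all genes. None passed in edgeR, beside 1.03% of tested genes that rose and 1.25% that fell, while at unadjusted p under 0.05 there was 1 higher member (1.28%, beside 7.63% of tested genes) and there were 5 lower ones (6.41%, beside 10.7%). DESeq2 called Mrps21 as higher (1.28%, beside 5.05% of tested genes) and Mrpl12 and Mrps9 as lower (2.56%, beside 5.82%). Limma-voom called Mrpl12 alone, as lower (1.28%, beside 2.12% of tested genes), and edgeR without the 2 doubted libraries called Mrps26 alone, as lower (1.28%, beside 1.70%). Groups did not overlap for 3 higher members, Mrpl10, Mrpl50 and Mrps21 (3.85%, beside 8.29% of tested genes), and for 11 lower ones (14.1%, beside 11.9%). Those counts moved with single libraries. The lower count was 7 without WT replicate 1, 21 without Gpx4-deficient replicate 1 and 24 without Gpx4-deficient replicate 3, and the higher count was 5 to 8 when WT replicate 1 or 3 or any Gpx4-deficient replicate was left out. Fewer libraries make groups stand apart more easily for any gene, and no share of all tested genes was computed for these left-out counts.

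Between the stimulated genotypes, the marker sums of monocytes and macrophages (25.8 to 63.2 CPM in WT, 65.2 to 89.9 CPM in Gpx4-deficient cells) and of erythroid cells and platelets (4.93 to 8.07 and 19.8 to 21.4 CPM) were apart, both higher in Gpx4-deficient cells. Those of neutrophils (21.4 to 76.2 and 4.85 to 57.3 CPM), B cells (13.9 to 24.0 and 5.03 to 60.8 CPM) and CD8 and NK cells (8.38 to 16.5 and 9.84 to 24.9 CPM) overlapped. No single marker of monocytes and macrophages was apart. Lyz2, for example, was at 26.8, 19.1 and 51.0 CPM in WT and 65.1, 34.5 and 15.0 CPM in Gpx4-deficient stimulated libraries. The part of these other cells in the member differences was not tested.

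Mrpl12 encodes the stalk protein that recruits translation factors, and is also known to bind the mitochondrial RNA polymerase (chromosome 11, 120484613-120489065, plus strand). In WT cells it was at 64.4, 60.0 and 59.8 CPM unstimulated and at 103, 98.4 and 97.9 CPM stimulated. In Gpx4-deficient cells it was at 32.0, 36.4 and 54.1 CPM unstimulated and at 60.6, 33.2 and 64.2 CPM stimulated. It was thus lower in all Gpx4-deficient libraries at rest and after stimulation, and its log2 fold changes were -0.59 at rest (edgeR adjusted p = 0.865) and -0.92 after stimulation (SE 0.27, edgeR adjusted p = 0.112). Over left-out libraries the adjusted p after stimulation was 0.0869 to 0.273.

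Mrpl12, Mrpl17, Mrpl2 and Mrpl28 were the 4 members lower without overlap in both states (5.13%, beside 2.10% of tested genes). Mrpl2 encodes the homolog of a core protein of the peptidyl transferase centre. It was at 43.8, 30.8 and 38.6 CPM in WT and 19.7, 30.5 and 29.6 CPM in Gpx4-deficient unstimulated libraries, which were nearly touching. After stimulation it was at 41.2, 54.9 and 38.6 CPM in WT and 24.2, 28.6 and 33.7 CPM in Gpx4-deficient cells, a log2 fold change of -0.64. Mrpl28 was then at 69.0, 79.1 and 57.1 CPM in WT and 19.2, 48.6 and 40.3 CPM in Gpx4-deficient cells, a log2 fold change of -0.92.

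Mrps21, Mrps9 and Mrps12 are small subunit genes that were also apart after stimulation. Mrps21 was at 26.1, 27.6 and 28.8 CPM in WT and 50.8, 37.4 and 53.1 CPM in Gpx4-deficient stimulated libraries, a log2 fold change of 0.78 (SE 0.27, edgeR adjusted p = 0.168). Mrps9 was at 45.9, 51.8 and 29.6 CPM against 20.6, 20.9 and 25 CPM, a log2 fold change of -0.94 (edgeR adjusted p = 0.155). Mrps12, which encodes a protein of the decoding centre, was at 35.2, 29.2 and 32.8 CPM against 22.0, 10.0 and 26.4 CPM, a log2 fold change of -0.73 (edgeR adjusted p = 0.318). At rest the genotypes overlapped for all 3.

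Several members have roles beyond a plain structural one. Mrps18a, Mrps18b and Mrps18c are paralogs related to a single bacterial protein. Only Mrps18c, whose protein takes the place of the bacterial one, is counted here with the bacterial homologs, and the other 2 are counted as mitochondrion-specific. On stimulation of WT cells their log2 fold changes were 0.30, 1.13 and -0.38, and the groups of all 3 were apart in WT. Mrps18b was at 52.9, 48.6 and 33.9 CPM without and 105, 102 and 88.7 CPM with stimulation (edgeR adjusted p = 0.0814), and it has a pseudogene copy with 417 matching bases. Mrpl58, a peptidyl-tRNA hydrolase that frees stalled ribosomes, had log2 fold changes of -0.34 in WT and -0.40 in Gpx4-deficient cells. Mrps30, in the large subunit despite its name, had 0.43 and 0.20, and Mrps36, outside the ribosome, -0.22 and 0.36. None of Mrps18a, Mrps18b, Mrps18c, Mrpl58, Mrps30 and Mrps36 passed in any comparison.

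Summed over the 78, member mRNA made up a small and rather steady share of the libraries. The sums were 3165, 3459 and 3232 CPM in WT unstimulated, 2790, 2715 and 2945 CPM in Gpx4-deficient unstimulated, 3736, 3638 and 3705 CPM in WT stimulated, and 3397, 2867 and 3845 CPM in Gpx4-deficient stimulated libraries. Every unstimulated Gpx4-deficient library was below every WT one, and the mean differed by -14.3% (exact permutation p = 0.1, the smallest that 3 against 3 allows, so the design cannot reach 0.05; Benjamini-Hochberg adjusted p = 0.2 over 24 such tests). On stimulation the sum was 12.4% higher in WT without overlap (exact permutation p = 0.1) and 19.6% higher in Gpx4-deficient cells with overlap (exact permutation p = 0.2). Between the stimulated genotypes it differed by -8.77%, with overlap (exact permutation p = 0.4).

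On stimulation of WT cells the large subunit sum was 8.41% and the small subunit sum 21.0% higher. Large subunit genes summed to 2173 ± 116 CPM in WT unstimulated and 2356 ± 9.79 CPM in WT stimulated cells, and small subunit genes to 1089 ± 39.3 and 1317 ± 49.3 CPM (SD, n = 3). The log2 ratio of large to small went from 0.996 ± 0.0295 to 0.839 ± 0.0538 (SD, n = 3), a change of -0.16 without overlap (exact permutation p = 0.1). Mrps6 alone supplied 94.0 of the 228 CPM by which the small subunit sum rose. With Mrps6 left out of the sums, a setting added after the data were seen, the ratio changed by -0.06 with overlap (exact permutation p = 0.2). The median log2 fold change of single members was 0.16 in the large and 0.12 in the small subunit. Gpx4-deficient cells gave 0.931 ± 0.0854 and 0.915 ± 0.182 (SD, n = 3), with overlap. With the mean of log2 levels in place of sums, the WT change was -0.10.

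Set against the 13 mRNAs that the ribosome translates, the members were lower in Gpx4-deficient cells. The log2 ratio of summed member CPM to summed mitochondrially encoded mRNA CPM was -1.83 ± 0.0922 in WT unstimulated, -2.53 ± 0.128 in Gpx4-deficient unstimulated, -1.65 ± 0.0754 in WT stimulated and -3.09 ± 0.163 in Gpx4-deficient stimulated libraries (SD, n = 3). The genotypes were apart by -0.70 at rest and -1.44 after stimulation, each without overlap and each at the smallest exact permutation p of 0.1. The denominator moved more than the numerator: 11 of the 13 mitochondrially encoded mRNAs rose in stimulated Gpx4-deficient against stimulated WT cells, with a median log2 difference of 1.53, while no member was called. The share of counts from those mRNAs was 1.09% to 1.26% in WT and 1.56% to 3.25% in Gpx4-deficient libraries, and the part of RNA quality or cell state in it was not tested.

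**Figure D5:**
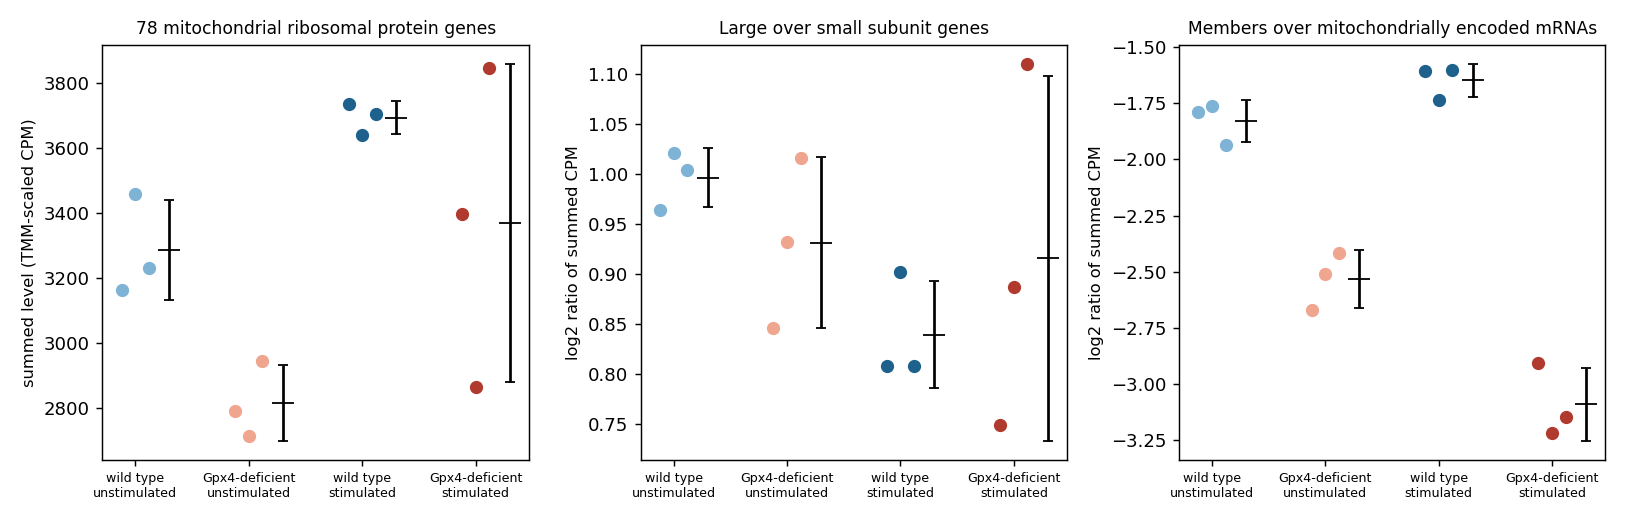
Summed CPM of the 78 members (left), log2 ratio of summed large to small subunit genes (middle) and log2 ratio of summed members to mitochondrially encoded mRNAs (right) in each library; points are replicates 1 to 3 and the black mark is the mean with its SD (n = 3). Axes do not start at 0. The right panel separates all 6 Gpx4-deficient libraries (-2.42 and lower) from all 6 WT libraries (-1.93 and higher).

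Genes that work with the mitochondrial ribosome were mixed too. A list of 6 mitochondrial ribosome proteins was drawn up for those with other symbols, but it also held the member Mrpl58. Of these 6, Dap3, a small subunit GTP-binding protein, fell in both genotypes. Its log2 fold change was -0.58 in WT (edgeR adjusted p = 0.0369) and -1.10 in Gpx4-deficient cells (edgeR adjusted p = 0.000696). Chchd1 (1.23) and Ptcd3 (0.81) rose in Gpx4-deficient cells, and the other 3, Mrpl58 among them, were not called. Of 27 assembly factors and rRNA-modifying enzymes, Rcc1l rose in WT (1.49) and Nsun4, an rRNA methyltransferase, in Gpx4-deficient cells (1.67), where Ybey, an endoribonuclease gene, fell (edgeR adjusted p = 0.0419). Of 17 translation factors, Lrpprc, which stabilises mitochondrial mRNA, rose in WT (0.92, edgeR adjusted p = 0.0495) and none was called in Gpx4-deficient cells. In these 3 lists no gene was called between genotypes in either state.

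Among regulators of genes for mitochondrial proteins, 3 rose in both genotypes. Myc was at 264, 243 and 249 CPM without and 1161, 1240 and 1338 CPM with stimulation in WT cells. Of 11 tested regulators, Myc, Gabpb1 (a subunit of GABP) and Pprc1 rose in WT, with log2 fold changes of 2.31, 1.28 and 2.03. The same 3 rose in Gpx4-deficient cells, with 2.32, 1.68 and 1.05, and none was called between genotypes. Over all 11 the median log2 fold change was 0.49 in WT and -0.06 in Gpx4-deficient cells.

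Because Gabpb1 rose, the promoters were searched for the ETS motif bound by GABP and for the motifs of NRF1, YY1 and Myc. RefSeq windows (GRCm38.p6, 250 bases before to 50 after the start) matched 69 of the 78 members, in 75 windows, and both strands were read. The ETS motif CCGGAAG was in 34.7% of member windows, beside 8.86% of all 32851 windows and 11.6% of the 21263 windows of coding genes. The NRF1 motif (GCGC, any base, then TGCGC) was in 17.3%, beside 4.60% and 6.38%, the YY1 motif (AAGATGG followed by CGG) in 6.67%, beside 0.852% and 1.21%, and the E-box CACGTG bound by Myc in 9.33%, beside 7.15% and 7.84%. The ETS and YY1 motifs can overlap by 3 bases, and a match is a description and not a bound site. The 24 members with an ETS match had a median log2 fold change on stimulation of -0.11 in WT and 0.03 in Gpx4-deficient cells, and the 45 without one 0.12 and 0.19. The 13 members with an NRF1 match had -0.17 and 0.08, and the 56 without one 0.13 and 0.18.

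Of the members called as higher after stimulation, all but Mrps10 and Mrpl15 are shown. These are 5 genes, and Mrpl12 is added as the member with the smallest adjusted p between stimulated genotypes. The stretches below are the 100 bases before the most upstream annotated start of each. They are written from 5′ to 3′ on the strand of the gene, with the NRF1 motif in capitals where a match was found.

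Mrpl12 (chr11:120484513-120484612, plus strand): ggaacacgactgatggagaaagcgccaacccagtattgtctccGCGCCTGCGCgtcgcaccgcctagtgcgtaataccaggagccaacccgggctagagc

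Mrpl17 (chr7:105811100-105811199, minus strand): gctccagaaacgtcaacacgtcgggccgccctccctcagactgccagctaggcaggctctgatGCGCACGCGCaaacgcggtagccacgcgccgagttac

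Mrps6 (chr16:92058170-92058269, plus strand): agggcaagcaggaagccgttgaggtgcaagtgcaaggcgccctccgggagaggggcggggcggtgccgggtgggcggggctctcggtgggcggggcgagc

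Mrps2 (chr2:28467966-28468065, plus strand): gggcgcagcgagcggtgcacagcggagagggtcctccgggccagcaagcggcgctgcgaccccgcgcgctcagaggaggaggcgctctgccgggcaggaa

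Mrpl50 (chr4:49521094-49521193, minus strand): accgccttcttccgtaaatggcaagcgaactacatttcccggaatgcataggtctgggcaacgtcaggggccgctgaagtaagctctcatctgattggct

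Mrpl10 (chr11:97041460-97041559, plus strand): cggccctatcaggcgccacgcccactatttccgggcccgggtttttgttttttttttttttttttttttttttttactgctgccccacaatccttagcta

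Among these 6, Mrpl12 and Mrpl17 carry an NRF1 match in the stretch shown, and Mrpl17 also has an ETS match elsewhere in its window. None of the 4 motifs was found in the windows of Mrps6, Mrps2, Mrpl50 and Mrpl10, although these genes were called as higher after stimulation in at least 1 genotype. Nor was any found in the window of Mrps10, and no RefSeq window matched Mrpl15. The lack of a match says only that these letters are not in the window.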

How the data were processed

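RNA was sequenced from 600 ng per library with a strand-specific mRNA kit, per the labels' protocols. The authors deposited a table of expected counts (estimated counts from RSEM, per the file name) for 24502 genes and 12 libraries, as deposited not normalized, on GRCm38 per the submitters' processing notes. The sources used here do not give the aligner, annotation, versions or strand setting.

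Expected counts were rounded to whole numbers (14.8% to 18.1% of values per library were not whole). Genes were filtered with filterByExpr, scaled by TMM and tested in edgeR 4.0.16 (R 4.3.3) with a robust quasi-likelihood fit of the 4 groups, which left 14827 genes and 8 residual degrees of freedom. The 5 contrasts were genotype in each state, stimulation in each genotype, and their interaction. P-values were adjusted by Benjamini-Hochberg over all tested genes, with a threshold of 0.05. The standard error is the log2 fold change divided by the root of F. Sums and ratios were compared by a two-sided exact permutation test over libraries. The steps were tested on simulated data.

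Genes named in the text are the called members of a comparison, up to 12 a direction, or else those with the smallest p up to 6 a direction. Added to these are Mrpl12, Mrpl58, Mrps12, Mrps18a, Mrps18b, Mrps18c, Mrps30 and Mrps36, the 5 highest and 5 lowest members per kilobase, and up to 4 genes of each other list. Other genes, such as those whose groups were apart or whose replicates spread most, were named after their values were seen. The members and lists were chosen with earlier results of these data known.

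Lengths and positions came from GENCODE (GRCm38) and promoter windows from RefSeq (GRCm38.p6). A near copy matched at least 200 bases at 95% identity or more. Alternatives were DESeq2 1.42.0, limma-voom (limma 3.58.1), DESeq2 scaling in edgeR, no filter, the replicate number as a block, only the 6 libraries compared, means of log2(CPM + 1), and each library left out. Replicate numbers come from the sample titles, and the main test did not use them to pair libraries. No correlation of same-numbered deviations passed 0.1, but deviations from a mean of 3 libraries cannot show that the libraries were unpaired.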

Additional observations from a re-analysis of the deposited data

Results flagged for a closer look

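The log2 ratio of summed member CPM to summed mitochondrially encoded mRNA CPM changed by -0.56 (-0.5587) on stimulation of Gpx4-deficient cells and by 0.18 on stimulation of WT cells, with no overlap between the states in either genotype. It was singled out because the 2 genotypes moved in opposite directions. The difference between them was not tested. With means of log2 levels in place of sums, the WT change was -0.03 (exact permutation p = 0.9) and the Gpx4-deficient change -1.04.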

How the results depend on the processing

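Of 374 values recomputed for whole-list results, 329 kept their direction and stayed within the limit (1.5 times for counts of members, 1 SD for sums and ratios). Members called on stimulation of WT cells (4 with the main test) numbered 2 with DESeq2 scaling in edgeR, 8 with DESeq2, 1 without a filter, 2 with the replicate block and 14 with only the 6 libraries compared. Over all tested genes, the same runs called 1711, 2639, 1546, 1265 and 3499, beside 907 higher and 802 lower with the main test. On stimulation of Gpx4-deficient cells (7) called members numbered 11 with DESeq2, 4 without a filter, 4 with the replicate block and 3 with only the 6 libraries. These runs called 3586, 1963, 1622 and 1022 of all tested genes, beside 1105 higher and 1161 lower with the main test. Between stimulated genotypes (0) called members numbered 3 with DESeq2, 1 with limma-voom and 1 without the 2 doubted libraries, and in the interaction (0) 1 with DESeq2. Of all tested genes these runs called 1532, 473, 469 and 385. Whether same-numbered libraries are paired is not given in the labels, and the correlations of their deviations, -0.03 to 0.06, cannot settle it. The replicate block left the other called counts at 0. The cause of these shifts was not tested. With Mrps6 left out of the sums, the WT stimulation change in the large to small ratio was -0.0582. With means of log2 levels, the WT stimulation change in the large to small ratio was -0.098, and in the ratio to mitochondrially encoded mRNA -0.028, while in the latter the Gpx4-deficient stimulation change was -1.04 and the difference between stimulated genotypes -1.73.

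With 1 library left out, called members numbered 1 in each case for WT stimulation, 3 to 8 for Gpx4-deficient stimulation, and 0 in each case for the other 3 comparisons. For WT stimulation, 1150 to 1248 of all tested genes were called in these fits. For Gpx4-deficient stimulation, 1797 were called without unstimulated replicate 1 (3 members) and 1672 without unstimulated replicate 2 (4 members). For the other left-out fits no count over all tested genes is given here, so their member counts cannot be set against it. Counts of members whose groups did not overlap (higher, then lower) were 1 to 5 and 21 to 32 for genotype at rest, 3 to 8 and 7 to 24 for genotype after stimulation, 22 to 28 and 13 to 20 for WT stimulation, and 14 to 21 and 3 to 8 for Gpx4-deficient stimulation. These left-out counts have no share of all tested genes beside them, and fewer libraries make groups stand apart more easily for any gene. Members with a negative genotype estimate at rest numbered 52 to 63.

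Estimates of single genes were checked for reversal only in 96 pairs of a gene and a comparison, those named by the rule. No called estimate reversed under the alternatives run, but 20 uncalled ones did. The estimates of other members were not checked in this way. With DESeq2 scaling in edgeR and with DESeq2, Mrps18b became 0.000569 and 0.000570 (genotype at rest), and Mrps18a 0.00454 and 0.00442 (Gpx4-deficient stimulation). Without the 2 doubted libraries, Mrpl34 became -0.00934, Mrpl42 -0.107, Mrps30 -0.166, Mrps18a -0.0118 and Mrps18b 0.324 (genotype at rest), Mrpl23 -0.245 (genotype after stimulation), and Mrps18c 0.341, Mrps30 -0.0936 and Mrps36 -0.0916 (Gpx4-deficient stimulation). Over left-out libraries, genotype at rest ranged from -0.0787 to 0.331 for Mrpl42, -0.0250 to 0.283 for Mrps10, -0.192 to 0.0379 for Mrpl58, -0.138 to 0.183 for Mrps30, -0.354 to 0.357 for Mrps18b, -0.251 to 0.0359 for Mrps12 and -0.581 to 0.0845 for Mrps36. Genotype after stimulation ranged from -0.280 to 1.17 for Mrpl23, -0.754 to 0.0599 for Mrps30, -0.650 to 0.0709 for Mrps18a and -0.326 to 0.0859 for Mrps18b. WT stimulation ranged from -0.0875 to 0.136 for Mrps12. Gpx4-deficient stimulation ranged from -0.369 to 0.124 for Mrps18c, -0.357 to 0.434 for Mrps30, -0.432 to 0.264 for Mrps18a and -0.0340 to 0.820 for Mrps36. The interaction ranged from -0.308 to 0.0770 for Mrpl58 and -0.494 to 0.218 for Mrps18b.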
